A study of Mus musculus with 12 samples.

Results

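The genes described here are 10 immediate early genes, chosen by name with earlier results of these data known. They are the zinc finger factors Egr1, Egr2 and Egr3, the orphan nuclear receptors Nr4a1, Nr4a2 and Nr4a3, and Arc, Ier2, Ier5 and Srf. All 10 were in both count tables, out of 16386 genes listed for PSC4 and 15309 listed for KPC4, or 17335 genes in either. PSC4 is a mouse pancreatic stellate cell line and KPC4 a mouse pancreatic adenocarcinoma line. The study moved culture supernatants between them and sequenced RNA from 12 libraries, 3 in each of 4 groups. The labels call the 3 libraries of a group biological replicates without saying what was repeated, so the p-values measure the spread between these libraries.

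PSC4 cells were cultured for 24 h in supernatant from KPC4 cells. For 6 h the donor cells had been kept with vehicle, giving Control-SU, or with gemcitabine at 10 µM, giving Gem-SU. After a wash they conditioned starvation medium for 14 h. Gemcitabine is a nucleoside analogue that blocks DNA synthesis. KPC4 cells were cultured for 24 h in supernatant from PSC4 cells that had themselves been kept in Control-SU (Control-PSC-SU) or Gem-SU (Gem-PSC-SU) for 6 h, washed, and left for 18 h in fresh starvation medium. All 4 groups therefore received conditioned starvation medium, and no library came from cells given gemcitabine directly. Each cell type is 1 established line. The PSC4 groups stand 1 transfer and the KPC4 groups 2 transfers away from the drug, so cell line and transfer step cannot be told apart.

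Immediate early genes are transcribed within minutes of a stimulus because the proteins that switch them on are already in the cell. Growth factors and stress reach them mainly through ERK signalling, which acts on serum response factor (Srf) and its ternary complex partners at CArG boxes, and through cAMP and calcium signalling, which acts on CREB at cAMP response elements. Their transcripts are short-lived, and several of their products, among them the EGR and NR4A factors, are transcription factors that control later genes.

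Promoters of the members are shown because the 2 elements named above are classical entry points for these signals. RefSeq start sites (GRCm38.p6) were used for 6 of the 10 genes: Egr2, Nr4a1, Nr4a2, Nr4a3, Ier5 and Srf. Promoters of the other 4, Egr1, Egr3, Arc and Ier2, were not examined, so the motif counts do not cover them. The motifs were searched on both strands in the 250 bases before the start: the CArG box, the full cAMP response element TGACGTCA, and its TGACG core, which is also part of the full element. The sequences below run 5′ to 3′ on the gene's strand, and capitals mark a CArG box or the TGACG core (CGTCA on the other strand). Egr2 has 5 listed starts, and the one shown lies at chr10:67537619-67537868 on the plus strand, with its CArG box at -72 to -63 from the start. Nr4a1 lies at chr15:101266596-101266845 on the plus strand, Nr4a2 at chr2:57124004-57124253 on the minus strand, and Srf at chr17:46556176-46556412 on the minus strand. The Srf stretch is 237 bases long because 13 bases that another transcript uses as exon were left out.
Egr2: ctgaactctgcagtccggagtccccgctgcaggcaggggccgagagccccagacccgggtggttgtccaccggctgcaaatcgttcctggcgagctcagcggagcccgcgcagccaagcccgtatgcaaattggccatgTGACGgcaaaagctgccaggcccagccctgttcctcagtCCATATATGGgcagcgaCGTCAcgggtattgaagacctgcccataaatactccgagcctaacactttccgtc
Srf: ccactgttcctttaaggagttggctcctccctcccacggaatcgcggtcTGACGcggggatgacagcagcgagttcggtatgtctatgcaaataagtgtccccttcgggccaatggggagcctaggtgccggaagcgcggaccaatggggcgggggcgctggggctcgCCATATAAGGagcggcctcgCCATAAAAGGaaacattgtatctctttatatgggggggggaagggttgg
Nr4a1: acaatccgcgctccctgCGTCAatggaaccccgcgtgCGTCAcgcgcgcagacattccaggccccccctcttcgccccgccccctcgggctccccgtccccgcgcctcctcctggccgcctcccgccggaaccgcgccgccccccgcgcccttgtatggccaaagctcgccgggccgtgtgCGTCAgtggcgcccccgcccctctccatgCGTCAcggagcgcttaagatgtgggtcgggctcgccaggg
Nr4a2: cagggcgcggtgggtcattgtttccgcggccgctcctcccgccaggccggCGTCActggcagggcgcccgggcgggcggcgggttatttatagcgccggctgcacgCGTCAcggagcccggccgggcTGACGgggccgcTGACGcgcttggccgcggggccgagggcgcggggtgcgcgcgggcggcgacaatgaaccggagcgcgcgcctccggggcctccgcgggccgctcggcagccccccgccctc

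A CArG box was found for 2 of the 6 genes, Egr2 and Srf, against 1.62% of 27025 genes with promoters of the same length. The TGACG core was found for 5 of the 6, all but Ier5, against 19.8% of genes. None of the 6 held the full TGACGTCA, which 1.77% of genes carried. A match describes letters in this window and says nothing about which factor was bound. The count tables carry no coordinates, so no signal was measured at these promoters.

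Libraries held 26354328 to 38138356 counts. Levels are given as CPM, the usual read count normalised to library depth, scaled by trimmed mean of M-values within each line. The markers that define each labelled line were read first. The stellate and fibroblast markers summed to 8130 to 8690 CPM in PSC4 under Control-SU and to 2431 to 3634 CPM under Gem-SU, with 10 of 11 markers analysed and 9 of 10 called lower. The ductal tumour markers summed to 6086 to 7526 CPM in control KPC4 and 6097 to 7538 CPM under Gem-PSC-SU, with 9 of 9 present. In PSC4, 6 ductal markers summed to 35 to 40.6 CPM under Control-SU and 58 to 66 CPM under Gem-SU. Cdh1, Cldn4 and Epcam were not among the genes listed for PSC4. Of the 11 stellate markers, 5 were analysed in KPC4, and Vim, a mesenchymal filament gene that tumour lines also express, made up nearly all of their sum, at 2588 ± 191 CPM in controls and 2053 ± 193 CPM under Gem-PSC-SU. The other 4 had control means of 0.16 to 21.9 CPM. Macrophage markers reached at most 5.72 CPM and endothelial markers at most 4.85 CPM in any library. The acinar markers looked for were not among the genes listed for either line. The part of the fallen stellate markers in the changes below was not tested. In bulk RNA, fewer cells that make a transcript and less of it per cell cannot be told apart.

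In PSC4 cells kept in Gem-SU, 8 of the 10 genes rose and none fell. Arc had the largest fold change of the 10, from a mean of 1.96 to 276 CPM, and Egr1 became one of the most abundant transcripts of the library. The remaining pair, Ier5 and Srf, had higher means under Gem-SU but did not pass the test. Across all genes, 24.3% were called higher in the same fit (edgeR's quasi-likelihood test, Benjamini-Hochberg adjusted p under 0.05) and 22% lower.

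Egr1, which links growth factor and stress signals to later transcription, stood at 110, 85.6 and 68.3 CPM in the Control-SU libraries and at 3058, 3387 and 4087 CPM in the Gem-SU libraries. The groups were far apart, and the Gem-SU libraries lay within 1.34-fold of each other. Its log2 fold change was 5.32 ± 0.28 (SE, n = 3 per group, edgeR adjusted p = 1.93e-05). In the Gem-SU libraries Egr1 ranked 7, 5 and 3 among all genes by count and took 0.309% to 0.408% of all counts.

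Egr2, known for its part in hindbrain patterning and myelination and also induced by mitogens, stood at 3.65, 1.61 and 0.975 CPM under Control-SU and at 159, 101 and 137 CPM under Gem-SU. Egr3, a close relative of Egr2, went from 12, 3.28 and 3.02 CPM to 153, 118 and 153 CPM. For both, replicate 1 was the highest control library and every Gem-SU library lay far above it. The log2 fold change was 5.98 ± 0.46 for Egr2 (edgeR adjusted p = 6.46e-05) and 4.53 ± 0.53 for Egr3 (edgeR adjusted p = 0.000353).

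The 3 Nr4a genes encode nuclear receptors that act without a known natural ligand and are controlled mainly by their level. Nr4a1 stood at 18.6, 6.91 and 7.93 CPM under Control-SU and at 205, 100 and 102 CPM under Gem-SU. Replicate 1 was the highest library in both groups, and the groups did not overlap. The log2 fold change of Nr4a1 was 3.61 ± 0.45 (edgeR adjusted p = 0.000479).

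Nr4a2 changed least of the 8 genes called, from 9.74, 11.2 and 8.65 CPM to 22.4, 25 and 31.9 CPM. Its libraries were the most even among the 10 genes under Control-SU, and no control reached the lowest Gem-SU library. Its log2 fold change was 1.42 ± 0.20 (edgeR adjusted p = 0.000867). Nr4a3 was the least abundant of the family, at 1.86, 0.474 and 0.65 CPM under Control-SU and 10.3, 11.3 and 9.96 CPM under Gem-SU. Control replicate 1 was again the highest of its group and still well below every Gem-SU library. Its log2 fold change was 3.39 ± 0.47 (edgeR adjusted p = 0.000782).

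Arc, best known as a regulator of synapses and outside the nervous system often near silent, stood at 2.96, 1.99 and 0.943 CPM under Control-SU. Under Gem-SU it reached 291, 225 and 313 CPM. No library of one group came near the other, and the log2 fold change was 7.13 ± 0.40 (edgeR adjusted p = 2.1e-05). Ier2, a small nuclear protein of the immediate early response, went from 23.4, 39.8 and 18.8 CPM to 600, 368 and 508 CPM. Replicate 2 was its highest control and its lowest Gem-SU library, and the groups did not overlap. The log2 fold change of Ier2 was 4.17 ± 0.33 (edgeR adjusted p = 7.35e-05).

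Ier5, related to Ier2 and known to work with heat shock factor 1, stood at 93, 32.7 and 57.1 CPM under Control-SU and at 131, 115 and 91.1 CPM under Gem-SU. Control replicate 1 lay just above Gem-SU replicate 3, so the groups overlapped. The log2 fold change was 0.88 ± 0.33 (edgeR adjusted p = 0.0576). Srf, the factor that binds CArG boxes and is itself a target of the same signals, stood at 47.1, 24.9 and 31.6 CPM and at 73.8, 48.6 and 46.8 CPM. Here too the highest control, replicate 1, lay above the lowest Gem-SU library. The log2 fold change was 0.71 ± 0.27 (edgeR adjusted p = 0.0589).

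Both genes were called higher without control replicate 1, at a log2 fold change of 1.32 for Ier5 (edgeR adjusted p = 0.00708) and 1.00 for Srf (edgeR adjusted p = 0.0165). Leaving out any of the other 5 libraries left both uncalled, with log2 fold changes down to 0.55 for Ier5 and 0.47 for Srf and edgeR adjusted p up to 0.168 and 0.182. DESeq2 called them too, at adjusted p = 0.0197 and 0.0291, and so had all 10 genes higher, against 25.9% of all genes. The authors' deposited table gave adjusted p = 0.0401 for Ier5 and 0.2 for Srf, and it had 9 of the 10 genes higher, against 22.4% of its genes. Control replicate 1 was the highest control for 8 of the 10 genes, the exceptions being Nr4a2 and Ier2, whereas it was the highest control for 36.5% of all genes tested. Gem-SU libraries lay entirely above Control-SU libraries for 8 of the 10 genes, against 29.3% of all genes tested.

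**Figure D1:**
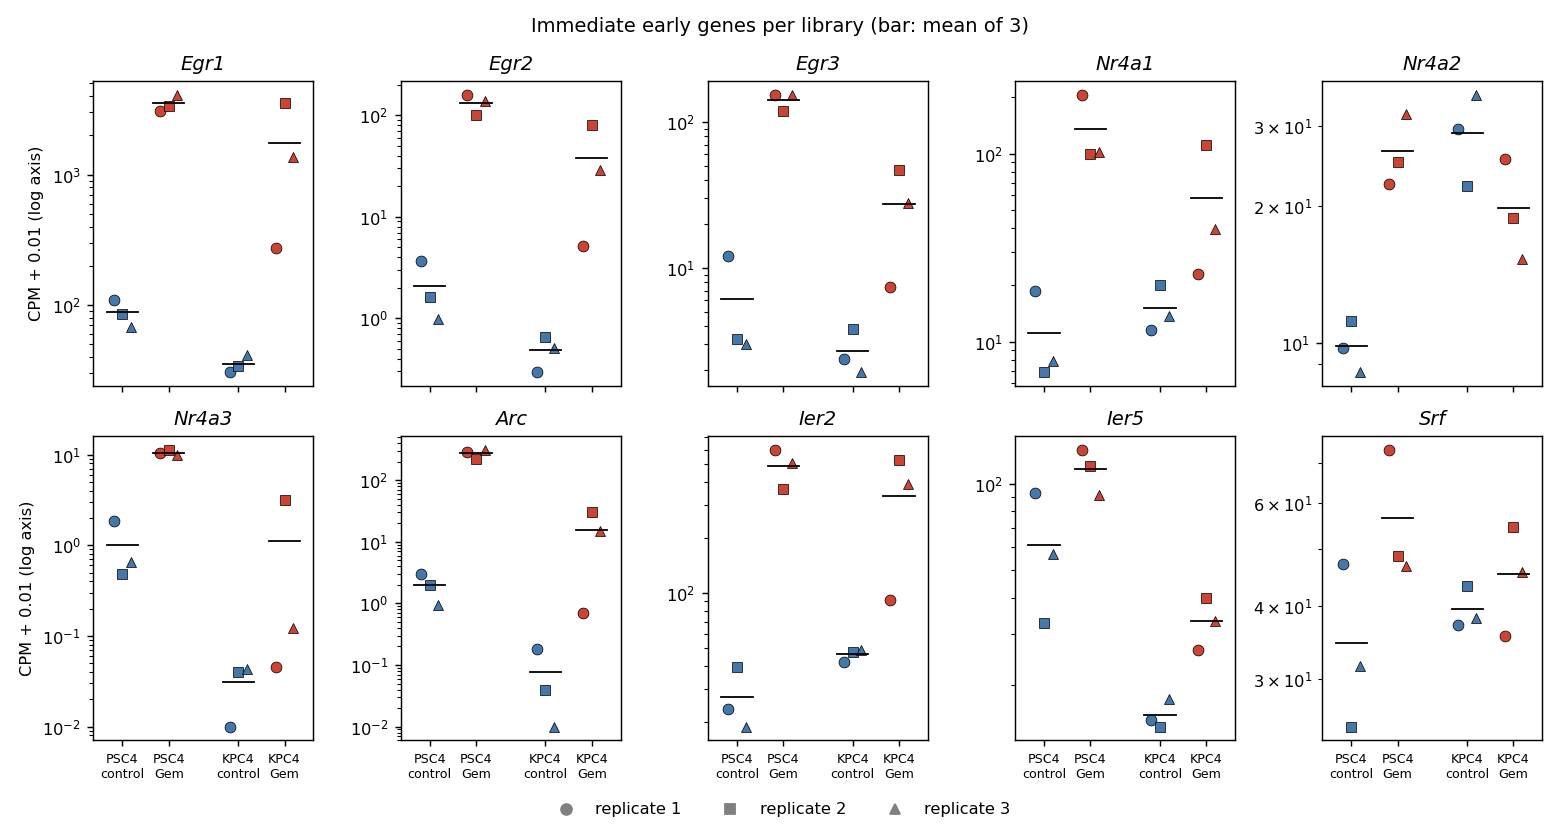
Level of each of the 10 genes in every library, in CPM plus 0.01 on a log axis, with one point per library and the groups of each line side by side. In PSC4 the Gem-SU points stand above the Control-SU points for all genes except Ier5 and Srf, while in KPC4 the 3 Gem-PSC-SU points of Egr1, Egr2 and Arc are spread far apart.

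Compared per kilobase of exon, the genes also changed their order in PSC4. Under Control-SU the highest levels per kilobase were those of Egr1 (19.6 CPM per kb), Ier5 (18.6), Ier2 (18) and Srf (11.9), and each of these overlapped its neighbour across libraries. Nr4a1, Nr4a2, Egr3, Arc, Egr2 and Nr4a3 followed, from 3.17 down to 0.166 CPM per kb, each also overlapping the next. Under Gem-SU, Egr1 (783 CPM per kb), Ier2 (323) and Arc (90.4) led and did not overlap each other. Egr2, Nr4a1, Ier5 and Egr3 then lay between 38.9 and 32.1 CPM per kb and overlapped. Srf (19.5), Nr4a2 (6.51) and Nr4a3 (1.76) were lowest and separate from one another. Arc thus stood in place 8 under Control-SU and in place 3 under Gem-SU.

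In KPC4 cells all members but Nr4a2 had a higher mean under Gem-PSC-SU than in controls. None of the 9 genes tested passed edgeR's adjusted threshold, and neither did any other gene (0%). At an unadjusted p under 0.05, 7 of the 9 were higher in that fit, against 10.9% of all genes tested. Those 7 were Egr1, Egr2, Egr3, Nr4a1, Arc, Ier2 and Ier5. DESeq2 called the same 7 genes, with 5.3% of all genes called higher, and the authors' deposited table called 8, with 4.49% of all its genes called higher. Gem-PSC-SU libraries lay entirely above the controls for 8 of the 10, against 11.8% of all genes tested, and 1 of these 8, Nr4a3, did so by scaling alone from 1 count in a library of each group.

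Egr1 stood at 30.9, 34.4 and 41.2 CPM in the Control-PSC-SU libraries and at 275, 3548 and 1378 CPM in the Gem-PSC-SU libraries. The controls were alike, while the highest Gem-PSC-SU library exceeded the lowest 12.9-fold. Over the mean of the controls, Egr1 was 7.75-fold, 100-fold and 38.8-fold higher in replicates 1, 2 and 3. Its log2 fold change was 5.61 ± 0.82 (edgeR adjusted p = 0.106).

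For Egr2 the control libraries held 0.288, 0.652 and 0.502 CPM and the Gem-PSC-SU libraries 5.16, 80.5 and 29.1 CPM. The libraries kept the same order as for Egr1, and the log2 fold change was 6.31 ± 0.97 (edgeR adjusted p = 0.112). Egr3 was at 2.36, 3.82 and 1.94 CPM in controls and 7.41, 47.2 and 27.7 CPM under Gem-PSC-SU. Replicate 1 lay lowest and replicate 2 highest once more, with a log2 fold change of 3.34 ± 0.62 (edgeR adjusted p = 0.112).

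Nr4a1 was measured at 11.5, 19.9 and 13.7 CPM in controls and 23, 111 and 39.5 CPM under Gem-PSC-SU. Only replicate 2 stood far above the controls, and replicate 1 exceeded the highest control by a small margin. Its log2 fold change was 1.95 ± 0.53 (edgeR adjusted p = 0.152). Nr4a2 went the other way in its mean, with 29.6, 22.1 and 35.1 CPM in controls and 25.4, 18.8 and 15.3 CPM under Gem-PSC-SU. The groups overlapped, and the log2 difference was -0.54 ± 0.26 (edgeR adjusted p = 0.328). Nr4a3 was near silent in KPC4, with 0, 1 and 1 counts in controls and 1, 102 and 3 counts under Gem-PSC-SU. A single library, replicate 2, carried nearly all of its counts, and the gene was too low for the edgeR fit. The authors' deposited table lists it at a log2 fold change of 5.70 and an adjusted p of 0.0223.

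Arc gave 6, 1 and 0 counts in the control libraries and 19, 980 and 403 counts under Gem-PSC-SU. With so few control counts its fitted log2 fold change of 7.69 ± 1.44 (edgeR adjusted p = 0.112) depends on the prior count and is no exact size. Replicates 2 and 3 held it at 30.4 and 15.2 CPM, and replicate 1 at 0.677 CPM. Ier2 stood at 42.3, 47.9 and 49.2 CPM in controls and 92.1, 530 and 391 CPM under Gem-PSC-SU, without overlap and with replicate 1 lowest. Its log2 fold change was 2.86 ± 0.53 (edgeR adjusted p = 0.112).

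Ier5 had the most even Gem-PSC-SU libraries of the 10 genes, going from 15.1, 14.3 and 17.8 CPM to 26.5, 40 and 33.2 CPM. The groups did not overlap and the highest Gem-PSC-SU library was 1.51-fold the lowest. The log2 fold change was 1.08 ± 0.22 (edgeR adjusted p = 0.115). Srf stood at 37.1, 43.3 and 38.2 CPM and at 35.5, 54.5 and 45.7 CPM, with overlapping groups and a log2 difference of 0.19 ± 0.21 (edgeR adjusted p = 0.655).

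The spread between Gem-PSC-SU libraries ran in one order over the genes. Replicate 2 was the highest library for 9 of the 10 genes, against 39.7% of all genes tested, and replicate 1 the lowest for 9 of the 10, against 39.8%. Nr4a2 was the exception on both counts, with replicate 1 highest and replicate 3 lowest. The median gene differed 1.58-fold between its highest and lowest Gem-PSC-SU library, whereas Arc differed 44.9-fold, Egr2 15.6-fold, Egr1 12.9-fold, Egr3 6.37-fold, Ier2 5.75-fold and Nr4a1 4.83-fold. Nr4a2 (1.65), Srf (1.53) and Ier5 (1.51) lay near that median, and Nr4a3 was too low for a ratio. In PSC4 under Gem-SU the same ratio ran over the 10 genes from 1.13 for Nr4a3 to 2.05 for Nr4a1, against a median of 1.4 over all genes.

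**Figure D2:**
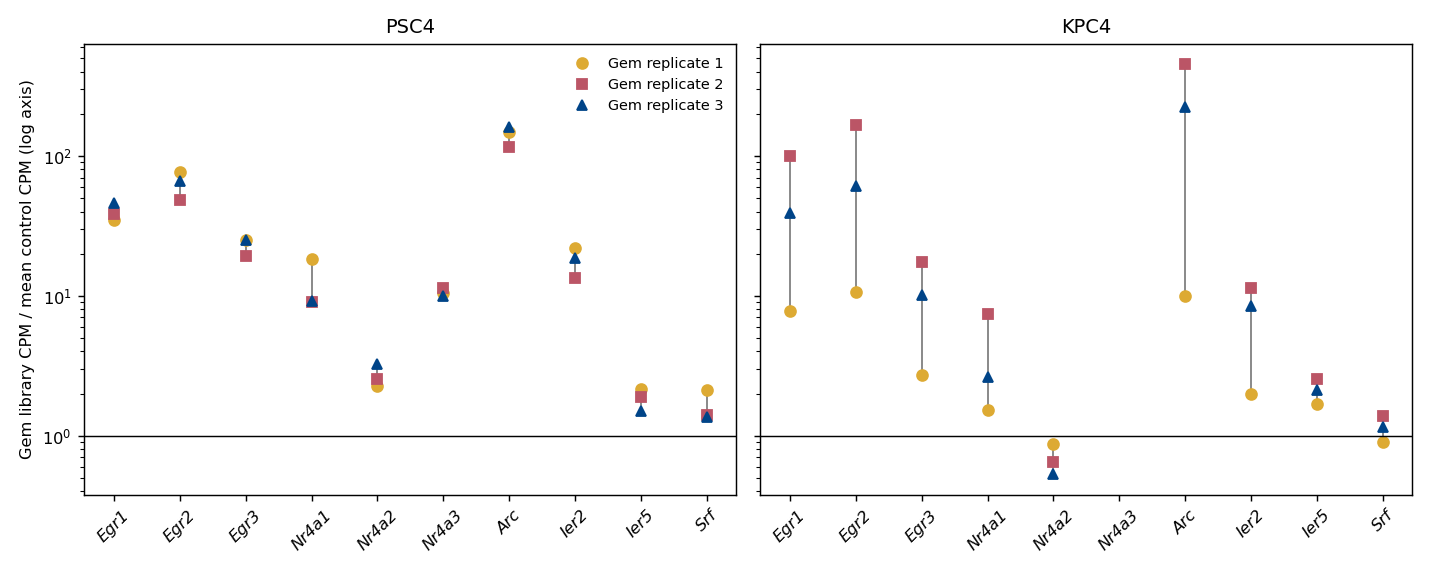
Level of each gene in every Gem-SU or Gem-PSC-SU library divided by the mean of its 3 control libraries, on a log axis, with one point per library. In KPC4 replicate 2 lies highest for all genes plotted except Nr4a2, Egr1 running from 7.75 to 100, and the ratios of Arc rest on 7 control counts in all, while Nr4a3 is not plotted there.

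In KPC4, libraries with the same replicate number deviated together from their group means (correlations over all genes tested of 0.351, 0.436 and 0.211), so a fit with the replicate number as a block was also made. It called 4 of the 9 genes higher, against 6.07% of all genes. These were Egr2 (edgeR adjusted p = 0.00143), Egr3 (0.0169), Nr4a1 (0.0173) and Ier5 (0.0183). Egr1, Arc and Ier2 did not pass with the block, at edgeR adjusted p = 0.0921, 0.0809 and 0.0762. Leaving out Gem-PSC-SU replicate 1 instead gave 7 genes called by edgeR, against 8.3% of all genes called in either direction. Egr1 then had a log2 fold change of 6.11 (edgeR adjusted p = 0.000685) and Ier2 one of 3.31 (edgeR adjusted p = 0.000304). Without Gem-PSC-SU replicate 2, Egr1 stayed higher at a log2 fold change of 4.54, but no member was called, against 0.00746% of all genes.

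Per kilobase of exon, control KPC4 cells had the most Ier2 (30.5 CPM per kb), then Srf (13.7), Egr1 (7.92) and Nr4a2 (7.13), of which Egr1 and Nr4a2 overlapped. Ier5 (4.8) and Nr4a1 (4.29) overlapped as well and were followed by Egr3 (0.615), Egr2 (0.142), Arc (0.0221) and Nr4a3 (0.00351). Under Gem-PSC-SU, Egr1 (387 CPM per kb) and Ier2 (222) led and overlapped. Nr4a1, Srf, Egr2, Ier5, Egr3, Arc and Nr4a2 lay between 16.5 and 4.89 CPM per kb, each overlapping its neighbour in this order.

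The change in PSC4 minus the change in KPC4 was tested directly, as an interaction in one fit of all 12 libraries. It passed for 1 of the 10 genes, Nr4a2, against 9.85% of all genes tested. Nr4a2 was 1.91 ± 0.34 log2 units more raised in PSC4 (edgeR adjusted p = 0.0046). In PSC4 its mean went from 9.86 ± 1.29 to 26.4 ± 4.91 CPM, and in KPC4 from 28.9 ± 6.51 to 19.8 ± 5.08 CPM (SD, n = 3), so the line with the higher control level was the one without a rise. The difference stayed between 1.74 and 2.12 when each library was left out in turn, with edgeR adjusted p of at most 0.0177.

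For Egr1 the difference between lines was -0.33 ± 0.79 and for Egr2 -0.36 ± 1.07 log2 units (edgeR adjusted p = 0.832 and 0.865), with standard errors too wide to show that the lines acted alike. Nr4a1 was 1.62 ± 0.73 log2 units more raised in PSC4 (edgeR adjusted p = 0.184). This difference passed with the replicate block, at 1.94 (edgeR adjusted p = 0.00193, 21.9% of all genes called). That block also paired the PSC4 libraries by number, although the numbers were not read as pairs in PSC4. The difference passed without Gem-PSC-SU replicate 2 as well, at 2.48 (edgeR adjusted p = 0.0196). The other members gave edgeR adjusted p from 0.232 to 0.871.

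**Figure D3:**
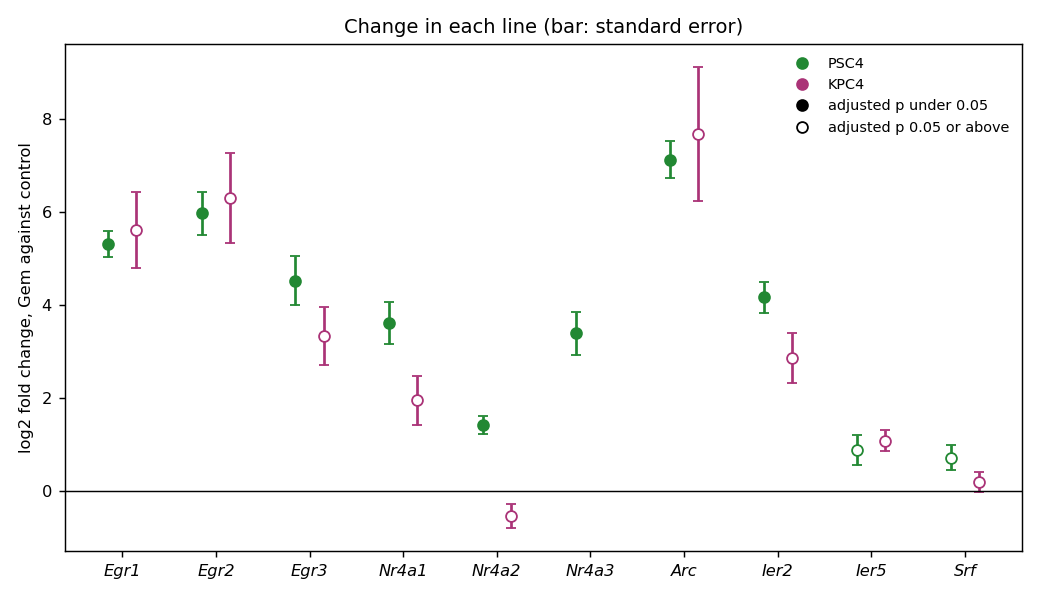
Log2 fold change of each gene under the gemcitabine-derived supernatant, with its standard error from edgeR, for PSC4 and KPC4 side by side. Standard errors are wider in KPC4 for most genes, and Nr4a2 is the only gene above 0 in PSC4 (1.42) and below 0 in KPC4 (-0.54).

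Other immediate early genes, also listed with earlier results of these data known, mostly moved with the members in PSC4. Of 16 further transcription factors of this class, 15 were tested, 11 rose and 2 fell, with a median log2 fold change of 2.35, while the median of all genes tested was -0.00, with 24.3% called higher and 22% lower. Atf3, a stress-induced factor of the ATF/CREB family, rose from 3.79 ± 1.03 to 1021 ± 151 CPM (SD, n = 3), by 8.07 ± 0.29 log2 units (edgeR adjusted p = 1.45e-05). The AP-1 subunits Fos and Fosl1 rose by 6.06 ± 0.27 and 3.71 ± 0.19 log2 units. The 2 that fell were Fosl2, another AP-1 subunit, at -1.14 (edgeR adjusted p = 0.00138), and Klf10, a TGF-beta-inducible repressor, at -0.54 (edgeR adjusted p = 0.0479). The call of Klf10 was lost without any of 4 libraries and without the low-count filter, with edgeR adjusted p up to 0.186.

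Of 12 further immediate early products, 10 rose and 1 fell, with a median of 2.36. The antiproliferative Btg2 rose from 12.3 ± 4.31 to 776 ± 118 CPM, and the polo-like kinases Plk2 and Plk3 rose by 3.73 ± 0.19 and 4.44 ± 0.25 log2 units. Trib1, a pseudokinase, fell by 1.36 log2 units (edgeR adjusted p = 0.00127). The ERK feedback list, made of inhibitors and ETS factors that ERK signalling induces, had 7 of 12 genes higher and 2 lower, with a median of 1.01. Dusp6, a phosphatase of ERK, rose by 3.03 ± 0.25, Etv5 by 2.07 ± 0.22 and Dusp5 by 2.02 ± 0.21 log2 units. The 2 lower genes were Spred1 and Etv1.

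The lists downstream of the members or beside them had called shares closer to those of all genes tested in PSC4, which were 24.3% higher and 22% lower. Of 9 co-repressors and target genes of EGR factors, 2 rose and 3 fell, with a median of -0.19, a split near that background. Pdgfa, a growth factor of mesenchymal cells, rose by 1.63 ± 0.26 and Cdk5r1 by 1.61 ± 0.43 log2 units. The co-repressor Nab1 was at -0.80 ± 0.21 (edgeR adjusted p = 0.014, and 0.0636 without Gem-SU replicate 2). Also called lower were the targets F3, at -0.88 ± 0.28 (edgeR adjusted p = 0.03), and Hpse, at -0.68 ± 0.20 (edgeR adjusted p = 0.0245). The call of F3 was not kept with every library left out in turn. Of 8 SRF cofactors, 7 were tested, Mrtfa rose by 0.70 ± 0.15 and the ternary complex factor Elk3 fell by 1.57 log2 units. Of 10 cytoskeletal genes controlled by SRF with MRTF, 3 rose and 2 fell, also near the background, and 1 of the 3, Actg2, had 2 control counts in all. Tagln and Myl9, of the contractile apparatus, rose by 3.25 ± 0.20 and 1.52 ± 0.36 log2 units, while Actb fell from 2240 ± 179 to 1067 ± 318 CPM. Among the actins, reads of near-identical copies may have been shared between genes, which was not tested.

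The list of CREB and cAMP genes had 2 of 10 higher and 3 lower, with a median of -0.08, again near the 24.3% and 22% of all genes. Sik1, a kinase induced by cAMP, rose by 1.12 ± 0.19 log2 units. Pde4b, a phosphodiesterase that breaks down cAMP, rose by 0.79 ± 0.21 and the CREB coactivator Crtc1 was at -0.63 ± 0.16, and both of these calls were lost without Gem-SU replicate 2 (edgeR adjusted p = 0.0653 and 0.068). The call of Crtc1 was also lost without Control-SU replicate 1 (edgeR adjusted p = 0.0503), and that of Pde4b in a joint fit of the 12 libraries (edgeR adjusted p = 0.179). Of 9 heat shock genes under HSF1, 3 rose and 2 fell, with a median of 0.32, which is near the same background. The co-chaperone Dnajb1 rose by 2.86 ± 0.16 and Hsp90aa1 by 1.16 ± 0.17 log2 units, while the constitutive Hspa8 fell from 3983 ± 954 to 1606 ± 361 CPM.

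**Figure D4:**
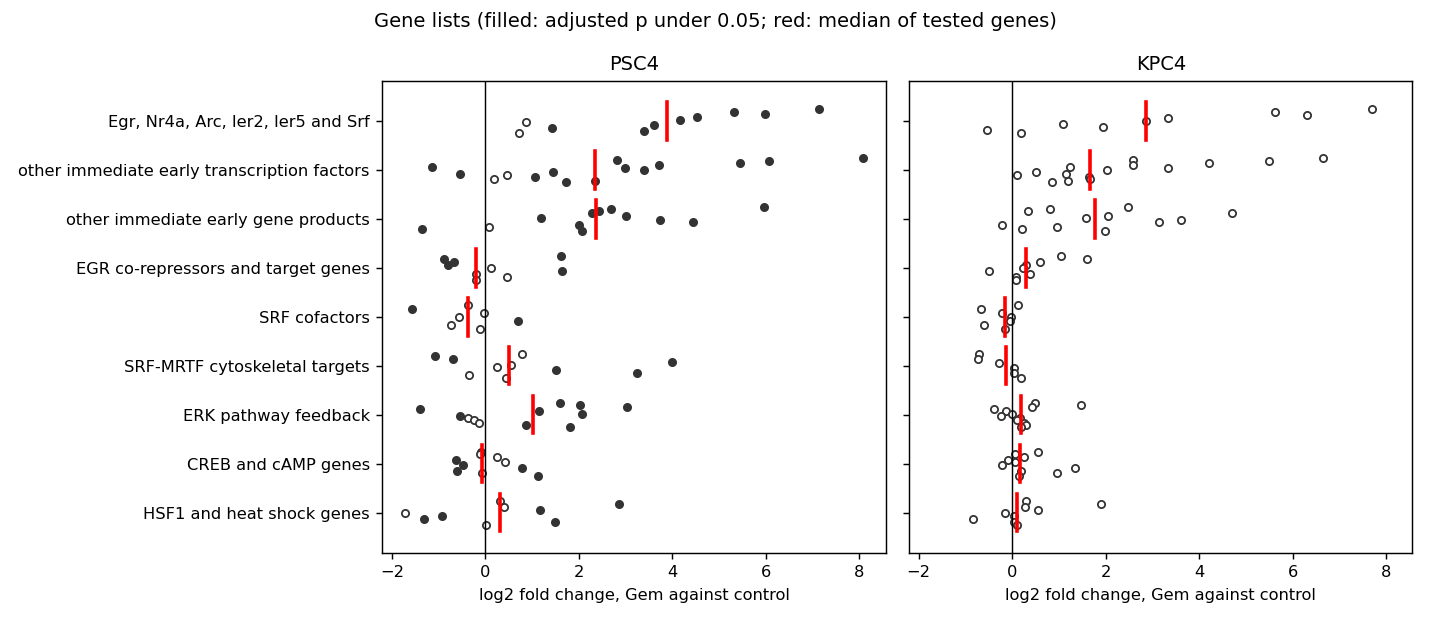
Log2 fold change of every tested gene in the 10-gene set and in each of 8 related lists, in PSC4 and in KPC4, with the median of each list as a red bar and genes past the adjusted threshold filled. In PSC4 the medians of the 2 other immediate early lists, 2.35 and 2.36, stand apart from those of the EGR target list (-0.19) and the CREB list (-0.08).

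In KPC4 no gene of these 8 lists was called by edgeR, as no gene was called at all. Of their 80 genes tested, the replicate block called 17 higher and 4 lower, against 6.07% and 2.78% of all genes. The other transcription factors held 7 of these 17 and the other immediate early products 6. Medians were 1.67 for the other transcription factors and 1.78 for the other immediate early products, against -0.02 over all genes tested, and between -0.15 and 0.30 for the remaining 6 lists. Atf3 went from 9.8 ± 5.07 to 983 ± 713 CPM, a log2 fold change of 6.65 ± 0.82 (edgeR adjusted p = 0.103, and 0.00212 with the replicate block). Dusp1, a phosphatase of MAP kinases, went from 10 ± 7.07 to 261 ± 201 CPM (edgeR adjusted p = 0.112, and 0.0011 with the replicate block). F3, tissue factor and a known EGR1 target, went from 114 ± 24.8 to 343 ± 162 CPM (edgeR adjusted p = 0.12, and 0.00356 with the replicate block). In the other lists the gene with the smallest p was Dusp5 (log2 fold change 1.47), Per1 (0.96), Hspa8 (-0.84), Actg1 (-0.74) or Elk3 (-0.66), with edgeR adjusted p from 0.115 to 0.212.

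The genes whose levels followed the members most closely were found by Pearson's r of log2(CPM + 1) over the 12 libraries, among 10727 genes with a mean of at least 5 CPM. The 12 libraries share 2 lines and one contrast, so high values are common and are given as a description. For Egr1 the nearest genes outside the set were Oser1 (r = 0.992), Ppp1r15a (0.987), a phosphatase subunit induced by stress, and Jun (0.985), an AP-1 subunit. For Nr4a1 they were Ddx5 (0.979), 2410131K14Rik (0.979) and Wipi2 (0.977). For Arc they were N4bp3 (0.988), Cdkn2aip (0.985) and Gabpb1 (0.984).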

How the data were processed

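Total RNA of 12 libraries was sequenced. Per the submitters' processing notes, FastQC, Trim Galore 0.6.10, cutadapt 5.2, Salmon, R 4.5.1, DESeq2 and the GRCm39 build were used, with no order given. The deposited gene-level counts are whole numbers; if Salmon made them, they are rounded estimates, and the annotation and strand setting are not given in the sources used here. The authors' deposited comparison tables give log2 fold changes and p-values per line. Symbols came from GENCODE M21 for 99.7% of the gene identifiers of each table.

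Counts were tested per line with edgeR 4.0.16 (R 4.3.3, limma 3.58.1): trimmed mean of M-values scaling, filterByExpr, quasi-likelihood test with robust estimation, Benjamini-Hochberg over all genes tested (13347 in PSC4, 13236 in KPC4), threshold 0.05. The difference between lines was the interaction over 12 libraries and 13632 genes, and rescaling to 12 libraries moved CPM by at most 3.51%. DESeq2 1.42.0, other filters and scalings, a replicate block and leaving out each library were the alternatives. The procedure was also run on simulated counts in which each gene had the same spread in all groups. That run does not cover the uneven spread of the KPC4 groups. Precision follows from 3 libraries per group and counting depth.

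The members and gene lists were chosen with earlier results of these data known. All 10 members are named. Of each other list, up to 3 genes per line with the smallest p among those called are named, or the one with the smallest p where none was called, and genes named outside this rule were chosen after their values were seen. The replicate numbers were read as pairs where all 3 same-number correlations of deviations exceeded 0.1. This held in KPC4 (0.351, 0.436 and 0.211) and not in PSC4 (0.428, -0.0548 and 0.102). No paper was used, and no genome of the submitters' build was used here.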

Additional observations from a re-analysis of the deposited data

Results flagged for a closer look

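Nr4a2 is listed because its change differed between the lines in the interaction test, by 1.91 log2 units (edgeR adjusted p = 0.0046), with higher levels in all 3 Gem-SU libraries of PSC4 and a lower mean under Gem-PSC-SU in KPC4. Of the 82 genes of the related lists tested the same way, 19 passed, against 9.85% of all 13632 genes tested, and 10 of these also passed whichever library was left out. Those 10 are named here, a choice made after their values were seen. Differences are the PSC4 change minus the KPC4 change, in log2 units, with edgeR adjusted p-values.

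Immediate early genes stood on both sides. Btg2 was raised further in PSC4, by 3.45 (edgeR adjusted p = 0.00226), and so was Rhob, a small GTPase, by 2.19 (edgeR adjusted p = 0.00172). Rhob went from 45.5 ± 16.1 to 184 ± 11.1 CPM in PSC4 and from 195 ± 34.9 to 167 ± 24 CPM in KPC4 (SD, n = 3). The other direction held for Fosl2 at -2.43 (edgeR adjusted p = 0.000631), Klf10 at -1.72 (edgeR adjusted p = 0.00493) and Trib1 at -1.62 (edgeR adjusted p = 0.00304). Fosl2 went from 329 ± 65.6 to 149 ± 9.09 CPM in PSC4 and from 80.4 ± 9.03 to 190 ± 52.9 CPM in KPC4.

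Among the ERK feedback genes, Dusp6 differed by 2.56 (edgeR adjusted p = 0.00156), Etv5 by 2.02 (edgeR adjusted p = 0.00304) and Spry4, an inhibitor of receptor tyrosine kinase signalling, by 1.57 (edgeR adjusted p = 0.011). Dusp6 went from 6.33 ± 1.75 to 51.7 ± 7.38 CPM in PSC4 and from 249 ± 75.1 to 334 ± 78.7 CPM in KPC4. F3 differed by -2.51 (edgeR adjusted p = 0.00707), going from 55.5 ± 14 to 30.1 ± 11 CPM in PSC4 and from 114 ± 24.8 to 343 ± 162 CPM in KPC4. Tagln differed by 3.17 (edgeR adjusted p = 0.000314) and stayed at 1.42 ± 0.201 and 1.45 ± 0.299 CPM in KPC4. Cell line and transfer step cannot be told apart in any of these differences.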

How the results depend on the processing

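The 8 members called in PSC4 kept direction and call under every alternative run, and the count of members called there ranged from 8 to 10. Of 13347 genes tested, 6177 were called in PSC4, 24.3% higher and 22% lower. With one library left out 4061 to 6826 were called, fewest when it was Gem-SU replicate 2. In KPC4 edgeR called 0 members, against 0% of all genes, and DESeq2 7, against 5.3% of all genes called higher. A joint fit of the 12 libraries called 5 members, among 610 of 13632 genes. With one library left out the KPC4 count ran from 0 to 7. The 7 were called when it was Gem-PSC-SU replicate 1, against 8.3% of all genes. All genes called in KPC4 numbered 0 of 13236 by edgeR, 823 of 13233 by DESeq2, 610 in the joint fit and 0 to 1129 with one library left out. The 1129 came from dropping Gem-PSC-SU replicate 1, while dropping Control-PSC-SU replicate 2 gave 174 and dropping Gem-PSC-SU replicate 2 gave 1. What caused these shifts was not tested. Genes whose change differed between lines numbered 1343 (9.85% of 13632), against 2140 by DESeq2 and 610 to 1993 with one library left out. Among them were 1 or 2 members, 2 when Gem-PSC-SU replicate 2 was dropped.

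With the replicate block, 4 members and 1171 of 13236 genes were called in KPC4. Between lines, 2 members and 2988 of 13632 genes (21.9%) differed. In PSC4, where the numbers were not read as pairs, the block called 7266 of 13347 genes. The sign of the difference between lines turned with the block for Egr1 (0.30) and Egr2 (0.07). With one library left out it ran from -0.85 to 0.71 for Egr1, -0.90 to 0.77 for Egr2, -2.75 to 1.66 for Nr4a3, -2.52 to 0.34 for Arc and -0.53 to 0.20 for Ier5. It was positive for the first 4 of these when Gem-PSC-SU replicate 2 was dropped, and for Ier5 and for Egr2 (0.33) when Control-SU replicate 1 was. None of these 5 differences passed edgeR's adjusted threshold under any setting. F3, lower in PSC4 at -0.88 (edgeR adjusted p = 0.03), lost its call when Control-SU replicate 1, Gem-SU replicate 2 or Gem-SU replicate 3 was dropped. In every edgeR fit the spread is pooled over the groups, also where 2 libraries are left in one of them. Low control counts limit Arc and Nr4a3 in KPC4, and standard errors there were wider than in PSC4 for 7 of the 9 members tested, all but Ier5 and Srf.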
